A study of Homo sapiens with 12 samples.

Results

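The genes described here encode 10 integrin subunits of WI-38 cells, 7 α chains (ITGA1, ITGA2, ITGA3, ITGA4, ITGA5, ITGA11 and ITGAV) and 3 β chains (ITGB1, ITGB3 and ITGB5). They were found by their gene symbols in the deposited expression table and followed by Entrez identifier in the raw counts, where they were 10 of 26 integrin subunit genes and 10 of 25702 genes counted. All 10 passed the filter on low values that left 9490 genes for testing.

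WI-38 is a line of normal human lung fibroblasts, and RNA was sequenced from 4 conditions with 3 flasks each. D1 cells (passages 2 to 3) were confluent cultures 1 day after a change of medium without TGF-β, and D1+ TGF-β cells (passages 2 to 3) had received 2 ng/mL TGF-β for that day. D20 and D20+ TGF-β cells (passages 5 to 6) were kept for 20 days without or with TGF-β, with medium renewed every 2 days. According to the methods, the day 20 flasks were seeded from 1 untreated and 1 treated flask, and the number of cells seeded was set so that they would be nearly confluent on day 20. All flasks therefore come from 1 cell line, flasks of day 20 share a parent flask within a treatment, and time in culture, passage and reseeding cannot be told apart in comparisons of day 20 with day 1. The p-values measure the spread between such flasks.

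An integrin is a receptor of 1 α and 1 β chain that spans the cell membrane, binds matrix proteins outside the cell and is tied to the actin cytoskeleton by adaptor proteins inside it. The α chain largely sets the ligand: α1, α2 and α11 pair with β1 as collagen receptors, α3 with β1 binds laminins, α4 with β1 binds fibronectin and VCAM1, and α5 with β1 and the αV pairs bind proteins with an RGD motif such as fibronectin and vitronectin. Integrins with αV can also release active TGF-β from its latent complex, and fibroblasts use integrins to pull on and assemble the matrix that accumulates in fibrotic lung.

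Library totals ranged from 8674488 to 18286197 counts, and the lowest count of any of the 10 genes in a library was 133. Levels are given in cpm, the usual count unit relative to library size, scaled with TMM factors, which correct for differences in RNA composition between libraries, and a level is compared between genes only after division by the length of the canonical transcript. A gene was called changed at a Benjamini-Hochberg adjusted p under 0.01 in edgeR's quasi-likelihood test over all 12 libraries. In bulk RNA, fewer cells of a kind and less RNA per cell cannot be told apart. ACTA2, which encodes the smooth muscle actin of myofibroblasts, had 183 ± 52.9 cpm in D1 and 768 ± 79.4 in D1+ TGF-β (SD, n = 3 each), and rose by 2.07 in log2 units (edgeR adjusted p = 2.28e-06). On day 20, ACTA2 had 287 ± 10.1 cpm without and 315 ± 37.4 with TGF-β (SD, n = 3 each), a log2 difference of 0.13 (edgeR adjusted p = 0.55), so that a higher level of this marker in D20+ TGF-β was not detected in these libraries. All 7 fibroblast markers passed the filter, and their summed level was between 13212 and 21672 cpm. Of 16 markers of smooth muscle, epithelial, endothelial and leukocyte cells, only the epithelial keratin KRT19 passed the filter, with group means of 8.17 to 20.2 cpm, and the summed leukocyte markers reached 6.36 cpm, nearly all from CD14 in D20. Their part in the results was not tested.

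2 libraries stood apart from the other flasks of their condition. D1 replicate 2 differed from D1 replicates 1 and 3 by more than 1 on the log2 scale for 117 and 121 of 9490 genes, against 1 gene between replicates 1 and 3. D20+ TGF-β replicate 3 differed from replicates 1 and 2 in the same way for 130 and 117 genes, against 1 gene between those 2 libraries. In D1+ TGF-β and in D20, no pair of flasks had such a gene. Leaving out these libraries changed some calls, counts of calls and shares. Both values are given beside many of these results, but not beside all.

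After 1 day with TGF-β, 4 of the 10 integrin subunits rose and none fell: ITGB3, ITGA11, ITGAV and ITGB1. Among all genes tested, 13.4% were called in this comparison, 6.89% higher and 6.50% lower, and the median log2 fold change of the 10 genes was 0.44 against -0.02 for all genes. After 20 days with TGF-β, 2 subunits were higher than in D20, ITGA11 and ITGB5, and 3 were lower, ITGB3, ITGA4 and ITGA3. Of all genes, 27.5% were called on day 20, 12.8% higher and 14.7% lower, and the median was -0.01 for the 10 genes and 0.01 for all genes. With all 12 libraries, ITGA11 was the 1 subunit called higher at both times, and ITGB3 was called in opposite directions. The TGF-β response differed between day 20 and day 1 for 2 of the 10 genes, ITGB3 and ITGB1, both lower on day 20. That difference of responses was called for 10.4% of all genes, 4.51% higher and 5.87% lower on day 20.

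Without D1 replicate 2 and D20+ TGF-β replicate 3, a choice made after seeing the data, more subunits passed the threshold, as did more genes overall. The 10 genes then had 7 higher and 0 lower calls on day 1 (27.8% of all genes called) and 4 higher and 3 lower calls on day 20 (36.1% of all genes called). ITGA1, ITGA2, ITGA11 and ITGB5 were then called higher on both days. The difference of responses was then called for 6 of the 10, all lower on day 20, against 23.9% of all genes.

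**Figure D1:**
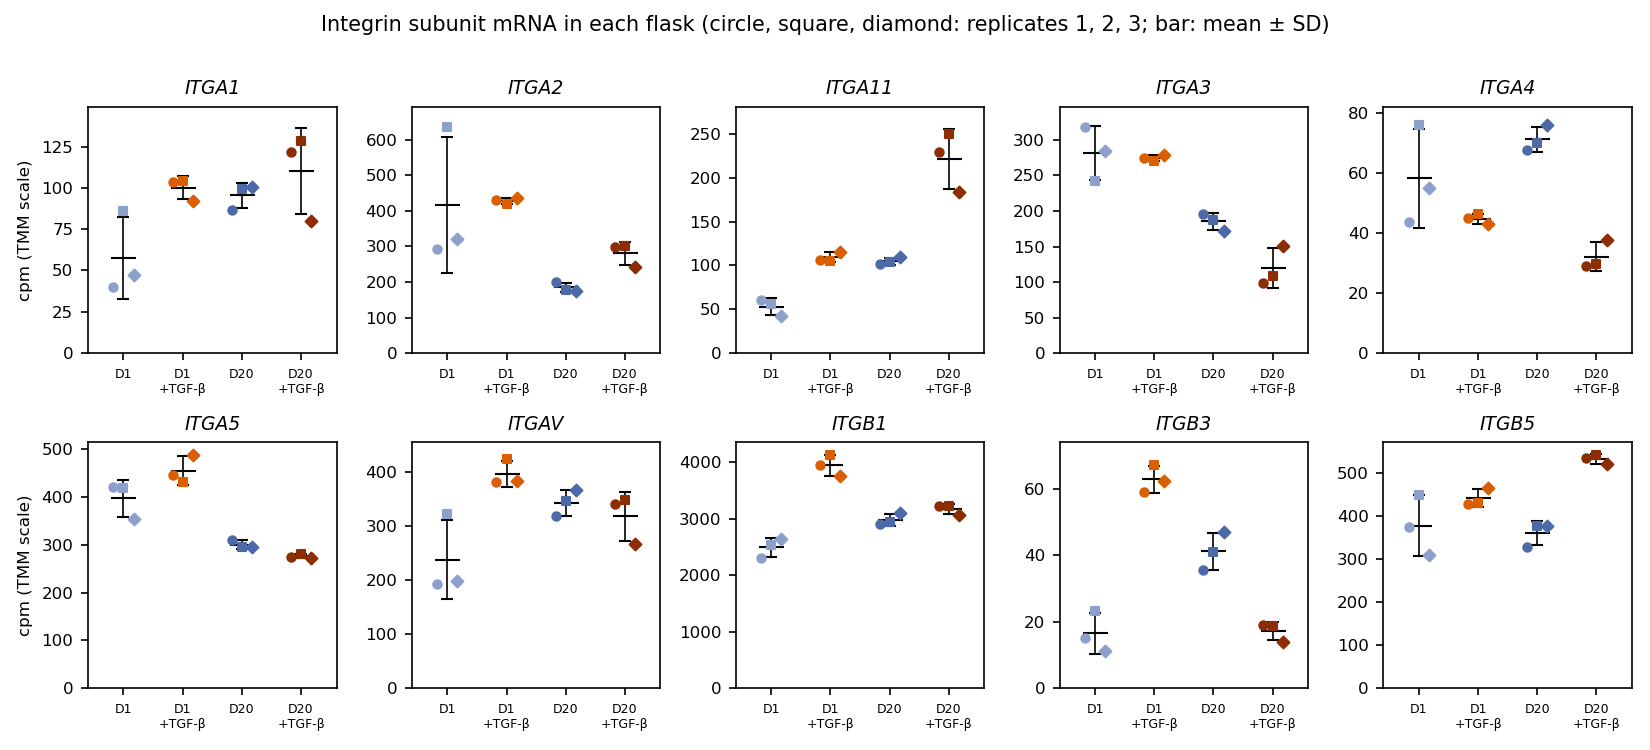
Level of each integrin subunit (cpm on the TMM scale, axes from 0) in every flask of the 4 conditions, with the mean and SD of 3 flasks. ITGB3 was between 58.9 and 67.1 cpm in D1+ TGF-β and between 14.0 and 18.9 in D20+ TGF-β, and the square of D1 replicate 2 lies apart for ITGA1, ITGA2, ITGA4 and ITGAV.

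Promoter windows of the RefSeq table were matched to GRCh37 for 8 of the 10 genes, all but ITGA3 and ITGB3. The 250 bases upstream of the canonical start are shown for ITGA11, ITGAV and ITGB1, which rose on day 1. Capitals mark a SMAD box, the letters CAGAC or its complement GTCTG on either strand, a short element that SMAD proteins of the TGF-β pathway are known to bind.
ITGA11, GRCh37 chr15:68724503-68724752, minus strand: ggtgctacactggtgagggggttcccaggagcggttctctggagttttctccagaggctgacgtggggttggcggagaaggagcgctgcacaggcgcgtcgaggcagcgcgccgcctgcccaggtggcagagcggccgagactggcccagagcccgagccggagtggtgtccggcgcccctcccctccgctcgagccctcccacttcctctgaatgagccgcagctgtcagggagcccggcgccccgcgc
ITGAV, GRCh37 chr2:187454533-187454782, plus strand: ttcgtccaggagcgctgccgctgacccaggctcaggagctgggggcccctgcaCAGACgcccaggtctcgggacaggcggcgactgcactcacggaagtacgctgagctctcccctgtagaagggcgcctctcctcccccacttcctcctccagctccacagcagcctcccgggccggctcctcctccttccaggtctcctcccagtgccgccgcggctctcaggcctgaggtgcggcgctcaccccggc
ITGB1, GRCh37 chr10:33247159-33247408, minus strand: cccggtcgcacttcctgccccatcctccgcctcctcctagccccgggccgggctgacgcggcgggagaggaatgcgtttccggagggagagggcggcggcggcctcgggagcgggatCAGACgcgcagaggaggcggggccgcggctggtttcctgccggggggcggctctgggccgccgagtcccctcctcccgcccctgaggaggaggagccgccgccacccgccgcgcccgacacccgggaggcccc
ITGAV and ITGB1 held 1 SMAD box each, and ITGA1 and ITGA5, which were not called on day 1, also held 1 each. ITGA11, ITGA2, ITGA4 and ITGB5 held none in these windows. Of 35116 windows of the same length in the table, 38% held this motif. The AP-1 motif TGANTCA was found in 6.57% of all windows and the CArG box, the motif of serum response factor, in 1.16%, and neither was in the 8 windows. A match is a description of letters, not a binding site.

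ITGB3 (Entrez 3690, GRCh37 chr17:45331193-45391109, plus strand) encodes the β3 chain, which pairs with αV in fibroblasts and binds vitronectin and fibronectin. Its level was 15.0, 23.2 and 11.3 cpm in the D1 flasks and 58.9, 67.1 and 62.3 in D1+ TGF-β. It was 35.6, 41.1 and 46.8 cpm in D20 and 18.9, 18.7 and 14.0 in D20+ TGF-β. In both TGF-β comparisons the flasks did not overlap, with treated flasks above untreated ones on day 1 and below them on day 20. ITGB3 rose by 1.91 ± 0.20 on the log2 scale on day 1 (SE, edgeR adjusted p = 1.61e-05), which is 3.76-fold. It was lower by a log2 fold change of -1.26 ± 0.20 on day 20 (SE, edgeR adjusted p = 0.000218). The difference of the responses was -3.17 ± 0.28 (SE, edgeR adjusted p = 9.78e-06). Between the treated cultures of the 2 days it fell by 1.87 in log2 units (edgeR adjusted p = 9.56e-06), while between the untreated cultures it rose by 1.31 (edgeR adjusted p = 0.000107). In the GENCODE annotation a read-through gene on the same strand shares 2266 of the 5941 bases of the canonical ITGB3 transcript, so that some of these reads could belong to either.

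ITGB1 (Entrez 3688, GRCh37 chr10:33176201-33294720, minus strand) encodes β1, the β chain with the most α partners, among them all 7 α chains described here. The D1 flasks had 2311, 2529 and 2647 cpm and the D1+ TGF-β flasks 3952, 4134 and 3755. The D20 flasks had 2906, 2943 and 3100 cpm and the D20+ TGF-β flasks 3225, 3234 and 3070. The treated flasks lay above all untreated ones on day 1, whereas on day 20 the ranges overlapped. The log2 fold change was 0.66 ± 0.08 on day 1 (SE, edgeR adjusted p = 4.12e-05) and 0.09 ± 0.08 on day 20 (SE, edgeR adjusted p = 0.37, 95% interval -0.07 to 0.25). Its TGF-β response was lower on day 20 than on day 1 by a difference of -0.57 ± 0.11 (SE, edgeR adjusted p = 0.00243). That call was lost without D1+ TGF-β replicate 2 (-0.54) and without D20 replicate 3 (-0.54). ITGB1 was also lower in D20+ TGF-β than in D1+ TGF-β, by a log2 fold change of -0.31 ± 0.08 (SE, edgeR adjusted p = 0.00407). This call was lost when replicate 1 or 2 of either treated group was left out, with values between -0.33 and -0.28. D20 against D1 gave 0.26 ± 0.08 (SE, edgeR adjusted p = 0.0126), which passed the threshold without D1 replicate 3 (0.30) or without D20+ TGF-β replicate 3 (0.26).

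**Figure D2:**
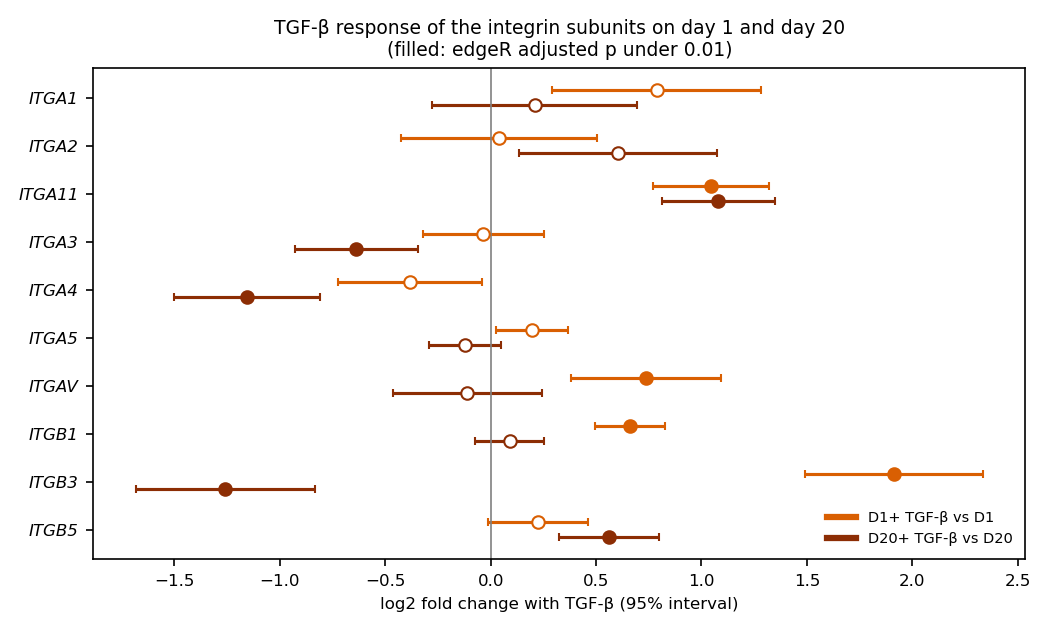
Log2 fold change with TGF-β (x axis) of each integrin subunit on day 1 and on day 20, with 95% intervals from edgeR, where filled points had an adjusted p under 0.01. ITGA11 is higher at both times, at 1.05 and 1.08, whereas ITGB3 is at 1.91 on day 1 and at -1.26 on day 20.

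ITGAV (Entrez 3685, GRCh37 chr2:187454737-187545628, plus strand) encodes αV, the shared α chain of the vitronectin receptors. It had 193, 322 and 198 cpm in D1 and 381, 424 and 383 in D1+ TGF-β. On day 20 it had 318, 346 and 366 cpm without and 340, 348 and 266 with TGF-β. Every treated flask of day 1 was above every D1 flask, of which replicate 2 was the highest, and the day 20 groups overlapped. ITGAV rose by 0.74 ± 0.17 on the log2 scale on day 1 (SE, edgeR adjusted p = 0.00565). This call was lost without D1 replicate 1 (0.61) or 3 (0.62) and without D1+ TGF-β replicate 1 (0.76), 2 (0.68) or 3 (0.76), and the value was 1.03 without D1 replicate 2. On day 20 the log2 fold change was -0.11 ± 0.16 (SE, edgeR adjusted p = 0.62, 95% interval -0.46 to 0.24), and 0.00276 without D20+ TGF-β replicate 3. The difference of the responses was -0.85 ± 0.23 (SE, edgeR adjusted p = 0.0201) and passed the threshold at -1.12 without D1 replicate 2. D20 exceeded D1 by 0.53 ± 0.16 on the log2 scale (SE, edgeR adjusted p = 0.0163). That difference passed without D1 replicate 2 (0.80) or without D20+ TGF-β replicate 3 (0.53). Between the treated cultures the value was -0.32 ± 0.16 (SE, edgeR adjusted p = 0.13). It passed at -0.32 without D1 replicate 2, and did not pass at -0.21 without both libraries that stood apart.

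ITGB5 (Entrez 3693, GRCh37 chr3:124480795-124620265, minus strand) encodes β5, which pairs with αV alone as a vitronectin receptor. Its level was 375, 450 and 310 cpm in D1 and 429, 430 and 466 in D1+ TGF-β, which overlapped. It was 330, 378 and 377 cpm in D20 and 534, 543 and 522 in D20+ TGF-β. All treated flasks of day 20 lay above every other flask of the study for this gene. The log2 fold change was 0.22 ± 0.11 on day 1 (SE, edgeR adjusted p = 0.16) and 0.56 ± 0.11 on day 20 (SE, edgeR adjusted p = 0.00118). On day 1 it passed the threshold without D1 replicate 2 (0.38). D20+ TGF-β against D1+ TGF-β gave 0.27 ± 0.11 (SE, edgeR adjusted p = 0.0546), and 0.28 with a call without both libraries that stood apart. D20 against D1 gave -0.07 ± 0.11 (SE, edgeR adjusted p = 0.64). The difference of the responses was 0.34 ± 0.16 (SE, edgeR adjusted p = 0.14), so that a larger response on day 20 was not established. ITGB3 and ITGB5, both β partners of αV, thus stood on opposite sides of D20 in D20+ TGF-β.

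ITGA11 (Entrez 22801, GRCh37 chr15:68588870-68724502, minus strand) encodes α11, a receptor chain for fibrillar collagen found mainly on fibroblasts. Its level was 60.4, 55.9 and 42.0 cpm in D1 and 106, 105 and 116 in D1+ TGF-β. It was 101, 103 and 109 cpm in D20 and 229, 250 and 184 in D20+ TGF-β. The D1 flasks were lowest, the D20+ TGF-β flasks were highest, and the D1+ TGF-β and D20 flasks lay between them at nearly the same level. ITGA11 rose with TGF-β by 1.05 ± 0.13 on day 1 (SE, edgeR adjusted p = 7.09e-05) and by 1.08 ± 0.12 on day 20 (SE, edgeR adjusted p = 1.70e-05), on the log2 scale. The 2 responses differed by 0.03 ± 0.18 (SE, edgeR adjusted p = 0.91), with a 95% interval from -0.35 to 0.42, and the sign turned without D1 replicate 1 (-0.070) or D20+ TGF-β replicate 2 (-0.062). From day 1 to day 20 it rose by 0.99 without TGF-β (edgeR adjusted p = 3.01e-05) and by 1.02 with it (edgeR adjusted p = 2.94e-05). In these 4 comparisons it was called under every alternative tried.

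ITGA1 (Entrez 3672, GRCh37 chr5:52083750-52255039, plus strand) and ITGA2 (Entrez 3673, GRCh37 chr5:52285170-52390609, plus strand) are neighbours on chromosome 5 and encode the collagen receptor chains α1 and α2. ITGA1 had 40.0, 86.0 and 47.0 cpm in D1 and 104, 104 and 92.1 in D1+ TGF-β. It had 86.5, 99.3 and 101 cpm in D20 and 122, 129 and 80.2 in D20+ TGF-β. The values that set these ranges were those of the libraries that stood apart, high in D1 replicate 2 and low in D20+ TGF-β replicate 3. Its log2 fold change with TGF-β was 0.79 ± 0.23 on day 1 (SE, edgeR adjusted p = 0.0241) and 0.21 ± 0.23 on day 20 (SE, edgeR adjusted p = 0.49). Without D1 replicate 2 the day 1 value was 1.21 and was called, as it was without D20+ TGF-β replicate 3 (0.79). Without both libraries ITGA1 was called higher with TGF-β on both days, at 1.21 and 0.40. The difference of the responses was -0.58 ± 0.32 with all libraries (SE, edgeR adjusted p = 0.22), and -0.81 with a call without both. D20+ TGF-β against D1+ TGF-β gave 0.14 ± 0.23 (SE, edgeR adjusted p = 0.63), and 0.31 with a call without both. D20 exceeded D1 by 0.72 ± 0.23 on the log2 scale (SE, edgeR adjusted p = 0.0187), and by 1.12 with a call without D1 replicate 2 and by 0.72 with a call without D20+ TGF-β replicate 3. PELO, a translation quality control gene that lies within ITGA1 on the same strand and shares 499 of the 10736 bases of its canonical transcript, had group means of 50.2 to 76.0 cpm, and reads in these bases cannot be assigned to 1 of the genes.

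ITGA2 had 292, 637 and 322 cpm in D1 and 432, 419 and 436 in D1+ TGF-β. It had 200, 179 and 176 cpm in D20 and 297, 302 and 242 in D20+ TGF-β. D1 replicate 2 alone lay above the treated flasks of day 1, while on day 20 all treated flasks lay above the untreated ones. The log2 fold change with TGF-β was 0.04 ± 0.22 on day 1 (SE, edgeR adjusted p = 0.91), and it was 0.49 with a call without D1 replicate 2. It was -0.16 without D1 replicate 1, -0.12 without D1 replicate 3 and -0.027 without a composition factor, so that its direction on day 1 was not settled. It was 0.60 ± 0.22 on day 20 (SE, edgeR adjusted p = 0.0402), and 0.62 with a call when D1 replicate 2, which enters the shared estimate of the spread, was left out. From D1 to D20, ITGA2 fell by 1.17 in log2 units (edgeR adjusted p = 0.000598), and by 0.75 without D1 replicate 2, still called. The difference of the responses was 0.56 ± 0.31 (SE, edgeR adjusted p = 0.21), and 0.13 without D1 replicate 2. Between the treated cultures the value was -0.61 ± 0.22 (SE, edgeR adjusted p = 0.0311), which passed at -0.62 without D1 replicate 2. The neighbouring ITGA1 and ITGA2 therefore had opposite signs from D1 to D20.

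ITGA3 (Entrez 3675, GRCh37 chr17:48133332-48167845, plus strand) encodes α3, a chain of a laminin receptor. Its level was 318, 243 and 284 cpm in D1 and 275, 271 and 278 in D1+ TGF-β. It was 196, 187 and 172 cpm in D20 and 98.3, 109 and 151 in D20+ TGF-β. The flasks of day 1 overlapped, and all D20+ TGF-β flasks were below all others, replicate 3 least so. The log2 fold change with TGF-β was -0.03 ± 0.13 on day 1 (SE, edgeR adjusted p = 0.88) and -0.64 ± 0.14 on day 20 (SE, edgeR adjusted p = 0.00214). Without D1 replicate 1 the day 1 value was 0.062. The day 20 call was lost without D20 replicate 1 (-0.58), D20+ TGF-β replicate 1 (-0.50) or D20+ TGF-β replicate 2 (-0.58), and the value was -0.84 without D20+ TGF-β replicate 3. The difference of the responses was -0.60 ± 0.19 (SE, edgeR adjusted p = 0.0384), and passed at -0.81 without D20+ TGF-β replicate 3. ITGA3 fell with time by 0.60 without TGF-β (edgeR adjusted p = 0.00216) and by 1.21 with it (edgeR adjusted p = 1.59e-05), on the log2 scale. The call without TGF-β was lost without D1 replicate 1 (-0.51) or D20 replicate 3 (-0.55).

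ITGA4 (Entrez 3676, GRCh37 chr2:182321929-182403667, plus strand) encodes α4, best known from leukocytes, where it binds VCAM1. Its level was 43.6, 76.0 and 54.8 cpm in D1 and 44.8, 46.3 and 43.0 in D1+ TGF-β. It was 67.5, 69.9 and 75.8 cpm in D20 and 28.8, 29.7 and 37.6 in D20+ TGF-β. The groups overlapped on day 1, whereas on day 20 each treated flask was well below each untreated one. The log2 fold change with TGF-β was -0.38 ± 0.16 on day 1 (SE, edgeR adjusted p = 0.0970) and -1.16 ± 0.16 on day 20 (SE, edgeR adjusted p = 8.18e-05), the latter a ratio of 0.449. The difference of the responses was -0.77 ± 0.23 (SE, edgeR adjusted p = 0.0263), and passed at -1.01 without D1 replicate 2. Between the treated cultures ITGA4 had a value of -0.49 ± 0.16 (SE, edgeR adjusted p = 0.0240). It passed without D1 replicate 1 (-0.49), D1 replicate 2 (-0.50) or D20+ TGF-β replicate 3 (-0.62). D20 against D1 gave 0.29 ± 0.15 (SE, edgeR adjusted p = 0.14), and 0.52 with a call without D1 replicate 2. CERKL, annotated on the opposite strand, overlaps 2813 of the 6781 bases of the canonical ITGA4 transcript and had group means of 1.14 to 2.42 cpm. The leukocyte markers other than CD14 were at or near 0 in all libraries. With CD14, their summed level was 5.63 to 6.36 cpm in D20, where the mean of ITGA4 was highest. It was at most 0.63 cpm in any other library. Their part in the values of ITGA4 was not tested.

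ITGA5 (Entrez 3678, GRCh37 chr12:54789045-54813050, minus strand) encodes α5, the main fibronectin receptor chain. Its level was 420, 419 and 353 cpm in D1 and 446, 430 and 488 in D1+ TGF-β. It was 310, 294 and 296 cpm in D20 and 275, 280 and 273 in D20+ TGF-β. Treated flasks lay above untreated ones on day 1 and below them on day 20, by margins that did not pass the threshold. The log2 fold change was 0.19 ± 0.08 on day 1 (SE, edgeR adjusted p = 0.0892) and -0.12 ± 0.08 on day 20 (SE, edgeR adjusted p = 0.24). The difference of the responses was -0.32 ± 0.11 (SE, edgeR adjusted p = 0.0598). ITGA5 fell with time, by 0.40 on the log2 scale without TGF-β (edgeR adjusted p = 0.000842) and by 0.72 with it (edgeR adjusted p = 1.32e-05). FN1, which encodes its ligand fibronectin, rose with TGF-β by 1.34 on day 1 (edgeR adjusted p = 1.05e-05) and by 1.95 on day 20 (edgeR adjusted p = 1.57e-07).

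Between the days, the untreated cultures had higher ITGA11 and ITGB3 and lower ITGA2, ITGA3 and ITGA5 in D20 than in D1, 2 and 3 of the 10 genes. Of all genes, 36.4% were called, 18.9% higher and 17.6% lower, and the median log2 fold change was 0.27 for the 10 genes and 0.01 for all. In D20+ TGF-β against D1+ TGF-β, ITGA11 was higher and ITGA3, ITGA5, ITGB1 and ITGB3 were lower. Here 34.8% of all genes were called, 17.2% higher and 17.7% lower, and the medians were -0.40 and 0.01. Without D1 replicate 2 and D20+ TGF-β replicate 3, the untreated cultures had 6 higher and 3 lower calls (48.9% of all genes called). The treated cultures then had 3 higher and 6 lower calls (47.3% of all genes called). The comparisons share samples, since D1 and D20 are each used in several of them.

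Per kilobase of canonical transcript, ITGB1 was the highest of the 10 genes in all 4 conditions, at 668 ± 45.6 cpm per kb in D1, 1057 ± 50.8 in D1+ TGF-β, 799 ± 27.5 in D20 and 850 ± 24.6 in D20+ TGF-β (SD, n = 3 each). ITGA5 and ITGB5 followed, with ITGA5 at 93.4 and ITGB5 at 85.2 cpm per kb in D1, where their flasks overlapped. In D20+ TGF-β, ITGB5 stood at 120 and ITGA5 at 64.9 cpm per kb, with no overlap. ITGA3, ITGA2 and ITGAV made up a middle tier between 23.6 and 57.6 cpm per kb in all conditions. In D1+ TGF-β these 3 lay at 56.2, 54.7 and 56.3 cpm per kb and overlapped. ITGA1, ITGA4, ITGA11 and ITGB3 were lowest, at 2.78 to 10.7 cpm per kb, except that ITGA11 reached 21.7 in D20+ TGF-β, where it overlapped ITGA3 at 24.4.

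As a share of the summed per-kb level of the 7 α chains, ITGA5 was the largest, at 36.6% ± 3.74 in D1, 35.6% ± 1.62 in D1+ TGF-β, 33.6% ± 0.80 in D20 and 31.4% ± 1.36 in D20+ TGF-β (SD, n = 3 each). ITGA11 took 2.02% ± 0.35 in D1, 3.56% ± 0.11 in D1+ TGF-β, 4.87% ± 0.20 in D20 and 10.4% ± 1.07 in D20+ TGF-β (SD, n = 3 each). The 3 collagen receptor chains together held 20.5%, 20.2% and 20.2% in the D20 flasks and 34.3%, 34.6% and 28.9% in the D20+ TGF-β flasks, without overlap. On day 1 their share overlapped between the groups, at 19.2%, 31.6% and 21.9% in D1 and 25.3%, 24.7% and 24.5% in D1+ TGF-β. The mean share in D1 was 24.2% with and 20.5% without replicate 2, and without that library the treated flasks of day 1 were all higher. The mean share in D20+ TGF-β was 32.6% with and 34.4% without replicate 3. ITGAV had 13.0% ± 2.06 in D1 and 18.7% ± 1.37 in D1+ TGF-β, without overlap, and 23.2% ± 1.70 in D20 and 21.8% ± 2.06 in D20+ TGF-β, with overlap (SD, n = 3 each). For shares, 3 flasks against 3 cannot give a two-sided exact permutation p below 0.1, which was the value where flasks did not overlap.

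Among the β chains, ITGB1 held 87.4% to 90.5% on average in every condition. ITGB3 was 0.37% ± 0.13 of the β chains in D1, 0.91% ± 0.05 in D1+ TGF-β, 0.78% ± 0.08 in D20 and 0.30% ± 0.04 in D20+ TGF-β (SD, n = 3 each). The ratio of summed α to summed β was 0.34 ± 0.05 in D1, 0.26 ± 0.02 in D1+ TGF-β, 0.24 ± 0.01 in D20 and 0.21 ± 0.01 in D20+ TGF-β (SD, n = 3 each). It was below 1 in each flask. The shares depend on the length chosen: with all annotated exons in place of the canonical transcript, the share of ITGAV in D1 was 7.54% of the α chains and the share of ITGB1 in D1 was 74.0% of the β chains. The fold change of a single gene between conditions does not depend on the length chosen, whereas a change in a share or in the ratio can.

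**Figure D3:**
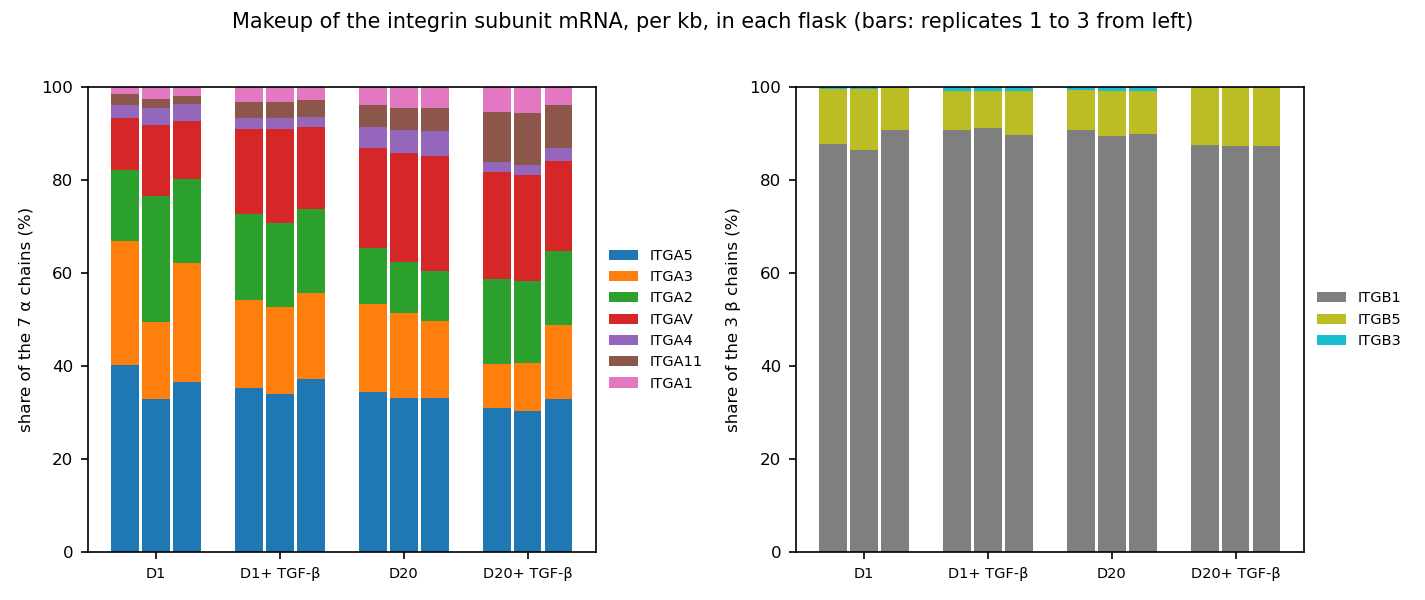
Share (%) of each α chain in the summed per-kb level of the 7 α chains (left) and of each β chain in that of the 3 β chains (right), with 1 bar per flask and 3 flasks per condition. ITGA11 is 10.4% of the α chains on average in D20+ TGF-β and 2.02% in D1, and ITGB1 is the largest β chain in every flask.

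Of the 16 other integrin subunit genes, 4 passed the filter: ITGA6, ITGA7, ITGAE and ITGB8. ITGA7, which encodes a laminin receptor chain best known from muscle, had 4.95, 4.10 and 4.77 cpm in D20 and 9.83, 9.66 and 13.7 in D20+ TGF-β. It rose by 1.25 on the log2 scale on day 20 (edgeR adjusted p = 0.000109) and not on day 1 (0.13, edgeR adjusted p = 0.56), and the difference of the responses was 1.12 (edgeR adjusted p = 0.00472). With time ITGA7 fell by 1.76 without TGF-β (edgeR adjusted p = 2.72e-06) and by 0.64 with it (edgeR adjusted p = 0.00427), so that its level in D20+ TGF-β was above D20 and below both groups of day 1 on average. On day 20 only D20+ TGF-β replicate 3 reached 10 cpm, so ITGA7 passed the filter mostly through the flasks of day 1, where it was higher. ITGAE, an α chain known from lymphocytes of epithelia, fell by 0.46 on the log2 scale with TGF-β on day 20 (edgeR adjusted p = 0.000217). ITGB8, whose product pairs with αV and activates TGF-β, had 13.2, 8.77 and 7.75 cpm in D1 and 34.5, 37.7 and 41.0 in D20, an increase of 1.94 on the log2 scale (edgeR adjusted p = 4.13e-05). In the treated cultures ITGB8 had 6.50, 8.17 and 7.47 cpm on day 1 and 43.2, 41.3 and 18.9 on day 20, with replicate 3 the lowest, an increase of 2.21 (edgeR adjusted p = 3.45e-05) that was 2.49 without that replicate. ITGB8 reached 10 cpm in every flask of day 20 but on day 1 only in D1 replicate 1. It passed the filter through the flasks of day 20, where it was high, which limits what its calls between the days show. ITGA6, another laminin receptor chain, fell by 0.58 from D1 to D20 (edgeR adjusted p = 0.00695).

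ITGA8, the α chain of an RGD receptor of mesenchymal cells, did not pass the filter because it reached 10 cpm in too few libraries. It had 106, 123 and 120 cpm in D20 and 4.12, 5.45 and 2.49 in D20+ TGF-β, and 12.3, 26.4 and 8.26 cpm in D1 and 3.55, 4.14 and 4.03 in D1+ TGF-β. No flask overlapped between treated and untreated cultures of the same day. In the fit of all 20434 genes with a count, ITGA8 was lower with TGF-β by a log2 fold change of -4.84 ± 0.26 on day 20 (SE, edgeR adjusted p = 1.30e-13) and -2.03 ± 0.29 on day 1 (SE, edgeR adjusted p = 8.63e-06). In the same fit ITGA10, a collagen receptor chain known from cartilage, was higher by 2.17 ± 0.29 on day 20 (SE, edgeR adjusted p = 1.24e-06), from 1.55 to 6.95 cpm on average. The remaining 10 subunits, ITGA2B, ITGA9, ITGAD, ITGAL, ITGAM, ITGAX, ITGB2, ITGB4, ITGB6 and ITGB7, were at 1.24 cpm or lower in each library, and ITGAD and ITGAM had no count.

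**Figure D4:**
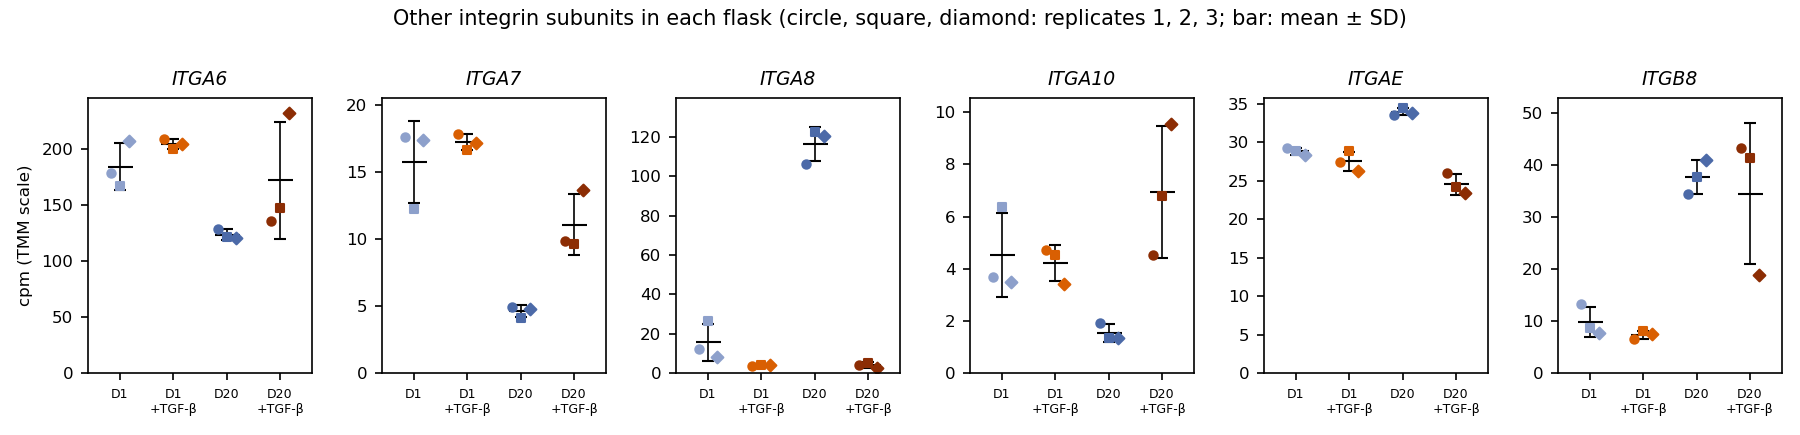
Level (cpm on the TMM scale, axes from 0) of 6 other integrin subunits in every flask, with the mean and SD of 3 flasks. ITGA8 lies between 106 and 123 cpm in D20 and at or below 26.4 in all other flasks, and ITGB8 is higher on day 20 than on day 1.

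Of 34 integrin ligand genes listed, 28 were tested, of which 9 rose and 1 fell with TGF-β on day 1, and 5 rose and 5 fell on day 20. Over all genes, 6.89% rose and 6.50% fell on day 1, and 12.8% rose and 14.7% fell on day 20. In either direction, 10 of the 28 ligands were called on day 20, against 27.5% of all genes. Among the collagens, COL5A1 rose by 1.87, COL1A1 by 1.09 and COL1A2 by 0.51 on day 1, and COL1A1 by 0.99 and COL5A1 by 0.87 on day 20, on the log2 scale. Among the other ligands, POSTN, which encodes the αV ligand periostin, rose by 1.54 on day 1 and by 3.32 on day 20. TNC (tenascin C) rose by 1.43 on day 1, and FBLN5 (fibulin 5) rose by 1.23 on day 20. COL1A2 (0.46) and TNC (0.49) were also called higher on day 20 without D1 replicate 2 and D20+ TGF-β replicate 3. Of the 7 laminin chains listed (LAMA2 to LAMA5, LAMB1, LAMB2 and LAMC1), 6 were tested. LAMA1 was not in the list, so the laminin calls given here do not cover it. LAMA5 was lower on day 1 (-0.99), 4 of the 6 were lower on day 20, and none of the 6 was called higher at either time, although LAMA2 was called higher on day 20 (0.39) without D1 replicate 2 and D20+ TGF-β replicate 3. The 3 lowest were LAMA4 (-1.69), LAMA5 (-1.66) and LAMB1 (-1.18). The median log2 fold change of the tested ligands was 0.41 on day 1 and 0.10 on day 20. Without D1 replicate 2 and D20+ TGF-β replicate 3, ligands had 16 higher and 2 lower calls on day 1 (27.8% of all genes called) and 13 higher and 7 lower calls on day 20 (36.1% of all genes called).

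Inside the cell, 29 of 32 listed partners of integrin tails were tested, and 5 rose and 3 fell with TGF-β on day 1. On day 20, 1 rose and 14 fell, and the difference of the responses was called lower on day 20 for 9 and higher for 0 of the 29. Of all genes, 13.4% were called on day 1, 27.5% on day 20 and 10.4% in the difference of the responses. Their median log2 fold change was 0.08 on day 1 and -0.27 on day 20. FERMT2 (kindlin-2, an activator of integrins) rose by 0.92 on day 1 and fell by 0.45 on day 20, a difference of the responses of -1.37 ± 0.12 (SE, edgeR adjusted p = 9.23e-06). VCL (vinculin, which links talin to actin) had a log2 fold change of 0.03 on day 1 (edgeR adjusted p = 0.76) and fell by 0.69 on day 20 (edgeR adjusted p = 4.22e-06). LIMS1 (PINCH-1, an adaptor of integrin-linked kinase) was the 1 partner called higher at both times, at 1.56 and 1.02, and the related LIMS2 fell by 1.11 on day 20. LIMS1 has near-identical gene copies, and the reads could be split among them. The tensins TNS1 (1.25) and TNS2 (-1.03) were called on opposite sides on day 1. Of the 5 genes listed as inhibitors or tail competitors, DOK1 fell by 0.41 on day 1 and KANK1 by 0.39 on day 20. The call of DOK1 was lost without D1 replicate 2 (-0.33) and without both libraries that stood apart (-0.34). Of the 3 myofibroblast markers listed, ACTA2, TAGLN (transgelin) and CNN1 (calponin), all rose on day 1, by 2.07, 0.87 and 1.21. On day 20, CNN1 fell by 0.44, whereas ACTA2 and TAGLN had log2 fold changes of 0.13 and 0.06 and were not called. The summed level of the 3 markers was 901 to 1468 cpm in D1, 2623 to 2860 in D1+ TGF-β, 1396 to 1484 in D20 and 1417 to 1652 in D20+ TGF-β. Their part in the values of the partners was not tested. Without D1 replicate 2 and D20+ TGF-β replicate 3, the partners had 6 higher and 2 lower calls on day 1 (27.8% of all genes called). On day 20 they then had 1 higher and 17 lower calls (36.1% of all genes called). The difference of the responses was then called lower on day 20 for 17 and higher for 0 of the 29, against 23.9% of all genes.

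Of 8 membrane partners, 1 rose and 1 fell on day 1, and 1 rose and 5 fell on day 20, against 13.4% and 27.5% of all genes called in either direction. Without both libraries that stood apart, 1 rose and 3 fell on day 1 and 1 rose and 6 fell on day 20, against 27.8% and 36.1% of all genes. PLAUR, the urokinase receptor, was the gene that rose, by 0.64 on day 1 and by 0.72 on day 20. CD47, which associates with the β3 chain, fell by 0.58 on day 1 and by 1.08 on day 20. CAV1 (caveolin-1) fell by 0.91 and SDC4 (syndecan-4, a co-receptor for fibronectin) by 0.89 on day 20, all on the log2 scale and each with an edgeR adjusted p under the threshold.

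**Figure D5:**
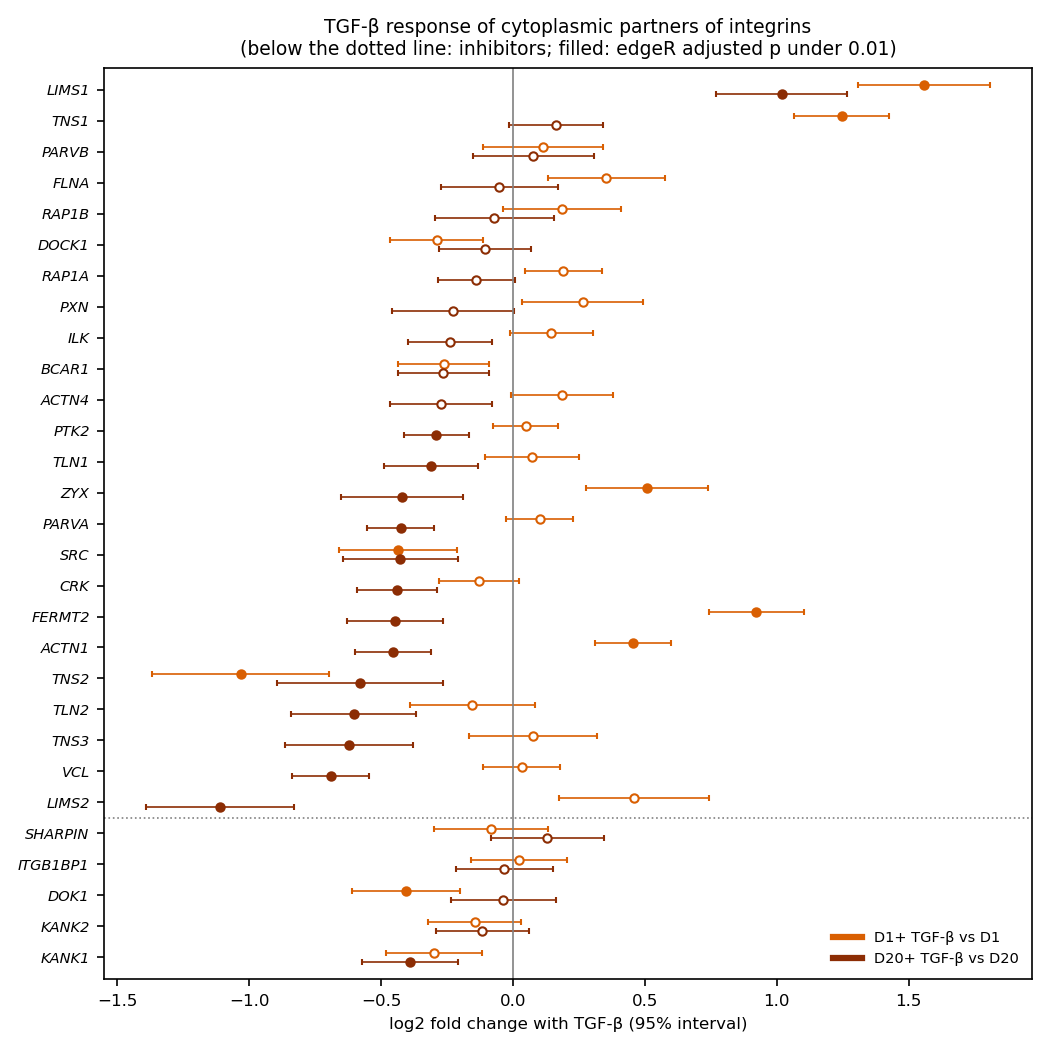
Log2 fold change with TGF-β (x axis) of the 29 tested cytoplasmic partners of integrins on day 1 and on day 20, with 95% intervals from edgeR, where filled points had an adjusted p under 0.01. On day 20, 14 of the 29 are called lower and LIMS1 alone is called higher.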

How the data were processed

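RNA of 12 flasks of WI-38 cells was sequenced from libraries made with a directional kit, each in 4 lanes. Per the methods and labels, Trimmomatic was used for trimming and Rsubread for alignment to hg19. The program used for counting, its annotation and its strand setting are not given in the sources used here. The authors deposited lane-level raw counts (25702 genes) and, for the genes left by their filter, log2 cpm. The log2 values served for gene symbols and for 1 alternative. Lanes were summed per library, and columns were matched to samples by name. A gene was tested when 6 or more of the 12 libraries reached 10 cpm (9490 genes). The test was that of edgeR 4.0.16 under R 4.3.3 (TMM factors, quasi-likelihood F-test, 1 mean per condition, Benjamini-Hochberg adjustment over all genes tested, threshold 0.01). The SE was derived from the log2 fold change and its F statistic. Gene positions and lengths are from GENCODE on GRCh37, and promoters from RefSeq (table of GRCh38.p14) matched to GRCh37. The members and gene lists were chosen with earlier results of these data known. All 10 genes were described in each comparison, with the other integrin subunits, ACTA2, FN1 and, for each role in the lists and each TGF-β comparison, up to 3 called genes with the largest log2 fold change. LAMA2, TAGLN, CNN1 and FERMT2 were named after their values were seen. Alternatives were DESeq2 1.42.0, limma 3.58.1, other scalings and filters, the libraries of 1 comparison alone, a replicate block, a test against a 1.2-fold change and leaving out each library (effects below). Scripts were tested on simulated data.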

Additional observations from a re-analysis of the deposited data

Results flagged for a closer look

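The response to TGF-β differed between the 2 days for 2 of the 10 integrin subunits, by a test of that difference itself, against 10.4% of all genes. Without D1 replicate 2 and D20+ TGF-β replicate 3, it was called for 6 of the 10, against 23.9% of all genes. For ITGB3 the day 20 response minus the day 1 response was -3.17 on the log2 scale (edgeR adjusted p = 9.78e-06), with treated flasks above all untreated flasks on day 1 and below all of them on day 20. For ITGB1 it was -0.57 (edgeR adjusted p = 0.00243), with treated flasks above all untreated flasks on day 1 and overlapping them on day 20. The ITGB1 call was lost without D1+ TGF-β replicate 2, without D20 replicate 3 and in the test against a 1.2-fold change. Passage and reseeding cannot be told apart from time in culture in either difference. On day 20, treatment also cannot be told apart from parent flask, since the flasks of each treatment came from 1. The p-values do not cover the spread between parent flasks.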

How the results depend on the processing

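Of the calls for single integrin subunits, those of ITGB3 in all comparisons and of ITGA11 outside the difference of responses stayed under every alternative. Treating 48 lanes as samples, which counts 1 library 4 times, gave 8 subunits and 3895 genes for D1+ TGF-β against D1, 5154 genes for D20+ TGF-β against D20, 9 and 5724 for D20+ TGF-β against D1+ TGF-β, 9 and 5895 for D20 against D1, and 9 and 3703 for the difference of responses. The test against a 1.2-fold change gave, in that order, 534 genes, then 3 subunits and 1229 genes, 1572 genes, 3 and 1820, and 1 and 460. With only the 6 libraries compared, D1+ TGF-β against D1 had 3 subunits and 802 genes. D20+ TGF-β against D1+ TGF-β had 8 subunits and 3640 genes. DESeq2 called the difference for 4 subunits and 1362 genes. Leaving out 1 library gave, in the same order, 3 to 7 subunits and 619 to 1875 genes, 4 to 6 and 1795 to 3288, 4 to 8 and 2275 to 4018, 4 to 8 and 2470 to 4003, and 1 to 5 and 549 to 1731. Leaving out both D1 replicate 2 and D20+ TGF-β replicate 3, chosen after seeing the data, gave 7 subunits and 2642 genes for D1+ TGF-β against D1. It gave 9 subunits and 4486 genes for D20+ TGF-β against D1+ TGF-β, and 9 and 4637 for D20 against D1. For the difference it gave 6 subunits and 2264 genes. The cause of these changes was not tested.

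The direction turned for ITGA2 on day 1 without a composition factor (-0.027). Over single libraries left out, ITGA2 on day 1 ran from -0.16 to 0.49, ITGA3 on day 1 from -0.12 to 0.062, ITGAV on day 20 from -0.18 to 0.00276, ITGB5 in D20 against D1 from -0.19 to 0.063, and the difference for ITGA11 from -0.070 to 0.17. Without both libraries, ITGAV on day 20 was 0.018 and ITGB5 in D20 against D1 was 0.063. Same-numbered flasks did not deviate together (r from -0.22 to 0.03), so the numbers do not pair them. A replicate block kept 47 of 50 subunit results and added calls for ITGA1 (0.77) and ITGAV (0.56) in D20 against D1 and for the ITGAV difference (-0.88). With 3 flasks per group, values that missed the threshold do not show equal levels.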
